A study of Homo sapiens with 12 samples.

Results

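The genes described here make prostaglandins, break them down or carry their receptors. They are the 10 genes PTGS1, PTGS2, PTGES, PTGES2, PTGES3, HPGD, PTGER2, PTGER3, PTGER4 and PTGFR. Every probe set whose platform symbol was one of these was taken, whatever its values, which gave 29 probe sets of the 54675 in the table and 10 genes of the 19775 named in it. A probe set is a group of short probes on the array that read one transcript or a group of related ones. The cells were Ishikawa cells, an established line of human endometrial cancer cells, profiled on Affymetrix U133 Plus 2.0 arrays. The study asked which genes change with metastin-10, also called kisspeptin-10, a short peptide cut from the KISS1 product, and whether they do so through its receptor GPR54, the product of KISS1R. Transfection with an siRNA lasted 48 h, and a peptide was then present for 24 h. There were 3 arrays in each of 4 groups. These were GPR54 siRNA plus metastin-10, GPR54 siRNA plus control peptide, negative control siRNA plus metastin-10, and negative control siRNA plus control peptide. Metastin-10 was given at 10 µM, and the labels state neither dose nor sequence for the control peptide. All 4 groups were thus transfected and all received a peptide, so none stands for untouched cells. The labels call the 3 arrays of a group biological replicates and do not say whether they came from separate cultures. A p-value here therefore weighs a difference against the spread between these arrays only. The single cell line limits the groups as a model of endometrial tissue.

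Prostaglandins are lipid signals made from arachidonic acid, which phospholipases release from membranes. The cyclooxygenases, encoded by PTGS1 and PTGS2, turn arachidonic acid into prostaglandin H, and terminal synthases turn that into prostaglandin E and its relatives. 15-hydroxyprostaglandin dehydrogenase, encoded by HPGD, starts their breakdown. Secreted prostaglandins act on receptors at the surface of the same or neighbouring cells, and those for prostaglandin E are encoded by the PTGER genes. In the endometrium these lipids are known for their part in menstruation and implantation, and the inducible cyclooxygenase is often abundant in carcinomas.

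Of the 10 genes only PTGS2 had a probe set that passed the test, and narrowly, while PTGS1 encodes the other cyclooxygenase. The sequences before the starts of these 2 genes are therefore shown. They are from RefSeq (build GRCh38.p14), which had such windows for 9 of the 10 genes, 13 windows in all. Each runs 5′ to 3′ on the gene's own strand and holds the 250 bases before an annotated start. Capitals mark matches, on either strand, to 6 short motifs: the TATA box TATAAA, the cyclic AMP response half-site CGTCA, the C/EBP half-site GCAAT, the hypoxia response core ACGTG, the E-box CANNTG and the GC box GGGCGG. PTGS2 has 1 window, at chr1:186680424-186680673 on the minus strand, and PTGS1 has 2 on the plus strand, at chr9:122370283-122370532 and chr9:122375052-122375301.
PTGS2: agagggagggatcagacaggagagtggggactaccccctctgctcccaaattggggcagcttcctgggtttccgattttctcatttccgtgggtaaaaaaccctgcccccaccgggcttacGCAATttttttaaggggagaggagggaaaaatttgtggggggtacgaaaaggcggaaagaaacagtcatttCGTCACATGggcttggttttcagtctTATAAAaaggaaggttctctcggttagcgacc
PTGS1, first window: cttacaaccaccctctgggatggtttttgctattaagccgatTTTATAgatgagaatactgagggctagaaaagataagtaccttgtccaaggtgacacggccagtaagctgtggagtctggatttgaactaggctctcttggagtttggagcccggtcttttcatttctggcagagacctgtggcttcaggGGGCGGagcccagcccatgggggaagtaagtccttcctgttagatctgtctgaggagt
PTGS1, second window: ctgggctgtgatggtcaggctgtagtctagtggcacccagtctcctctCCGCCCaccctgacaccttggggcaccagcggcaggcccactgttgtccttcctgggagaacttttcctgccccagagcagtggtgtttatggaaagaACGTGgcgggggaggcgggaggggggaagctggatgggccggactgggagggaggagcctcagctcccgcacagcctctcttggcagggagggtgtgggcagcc
In the PTGS2 window a TATA box lay at bases 32 to 27 before the start, a cyclic AMP half-site at bases 58 to 54 and a C/EBP half-site at bases 129 to 125. An E-box at bases 55 to 50 overlapped the cyclic AMP half-site, and the window had no GC box and no hypoxia core. The first PTGS1 window had a GC box at bases 58 to 53 and a TATA box on the other strand at bases 208 to 203. The second had a hypoxia core at bases 104 to 100 and a GC box on the other strand at bases 202 to 197. Of the 35116 RefSeq windows of this length, 10.7% held the TATA box, 21.2% the cyclic AMP half-site, 21.3% the C/EBP half-site, 18.5% the hypoxia core, 61.8% an E-box and 42.6% the GC box. GC content was 50.4% in the PTGS2 window, and 49.6% and 65.2% in those of PTGS1. These matches describe letters and not binding, and the arrays do not show which start was used.

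No fall of KISS1R, the gene the siRNA targets, was seen under the GPR54 siRNA label. The KISS1R probe set (242517_at) averaged 9.43 ± 0.16 in GPR54 siRNA with metastin-10, 9.42 ± 0.05 in GPR54 siRNA with control peptide, 8.40 ± 0.04 in control siRNA with metastin-10 and 9.28 ± 0.13 in control siRNA with control peptide (log2, SD, n = 3 each). The siRNA difference was 1.03 with metastin-10 (adjusted p = 0.000391) and 0.14 with control peptide (adjusted p = 1). KISS1R was lowest in the arrays labelled control siRNA with metastin-10, where it fell by 0.88 against control peptide (adjusted p = 0.00213). The groups are therefore called by their labels. Every direction below, for the peptide as well as for the siRNA, is that of the labels. PTGS2, VEGFA and KRT19, described below, were lowest in the same arrays as KISS1R. Whether the labels match the treatments that these arrays received was not tested. The cells carried epithelial markers. The 6 epithelial markers averaged between 10.8 (PAX8) and 13.99 (KRT18) over the 12 arrays, while 0 of 4 leukocyte markers and 1 each of 6 stromal, 5 endothelial and 4 smooth muscle markers averaged 6 or more. The stromal, endothelial and smooth muscle markers at 6 or more were COL1A1 (9.84), VWF (6.97) and ACTG2 (6.61). Mean levels of each of the marker lists differed between the groups by at most 0.20 on the log2 scale. No member of the stromal, endothelial, leukocyte or smooth muscle lists passed the test in any of the 5 comparisons, and PDGFRA, CDH5, LYZ and ACTG2 had the smallest p of their lists, with an adjusted p of 0.299 or more. KRT19, an epithelial keratin, was the marker that passed. It fell by 0.48 with metastin-10 under control siRNA (adjusted p = 0.009), and with metastin-10 it was 0.59 higher in the arrays labelled GPR54 siRNA than in control siRNA (adjusted p = 0.00165). Its part in the results below was not tested. Array correlations ran from 0.992 to 0.998. The replicate 3 arrays had a lower beta-actin 3′ minus 5′ difference, a sign of RNA integrity, at 0.31 ± 0.04 against 0.77 ± 0.09 for replicate 1 and 0.72 ± 0.05 for replicate 2 (log2, SD, n = 4 each). The 4 group means of that difference lay between 0.58 and 0.65.

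PTGS2, the inducible cyclooxygenase, was the only member with a probe set that passed the test, and it did so narrowly. At that probe set PTGS2 was 1.42-fold lower with metastin-10 than with control peptide under control siRNA. Its brighter probe set, 204748_at, read 5.89, 5.70 and 5.59 in GPR54 siRNA with metastin-10 and 5.57, 5.55 and 5.55 in GPR54 siRNA with control peptide. It read 5.22, 5.33 and 5.41 in control siRNA with metastin-10 and 5.95, 5.81 and 5.70 in control siRNA with control peptide (log2 RMA values, replicates 1, 2 and 3). All 3 arrays of control siRNA with metastin-10 lay below the other 9, and the share of all probe sets with this pattern was not counted. From lowest to highest the group means were 5.32 ± 0.10 in control siRNA with metastin-10, 5.56 ± 0.01 in GPR54 siRNA with control peptide, 5.73 ± 0.15 in GPR54 siRNA with metastin-10 and 5.82 ± 0.13 in control siRNA with control peptide (SD, n = 3 each). The last 2 of these overlapped array by array, and the other neighbours did not.

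Under control siRNA the difference between metastin-10 and control peptide was -0.50 on the log2 scale (SE 0.10, 95% interval -0.71 to -0.29), with an adjusted p of 0.0478 from limma over the 54613 probe sets tested. PTGS2 was the only 1 of the 29 probe sets past the threshold of 0.05 there, against 0.428% of all probe sets, and 0.386% of all were called lower. The call lay close to the threshold. Between same-numbered arrays the difference was -0.74 for replicate 1, -0.48 for replicate 2 and -0.29 for replicate 3, the replicate with the lower beta-actin difference. With replicates 1 and 2 alone it was -0.61 (adjusted p = 0.0587). The call was lost without any 1 array of control siRNA with metastin-10 (adjusted p of 0.233, 0.155 and 0.0604 without replicates 1, 2 and 3) or of control siRNA with control peptide (0.205, 0.19 and 0.0642). It was also lost without any 1 array of GPR54 siRNA with control peptide (adjusted p of 0.0709, 0.0883 and 0.0745) and without replicate 2 of GPR54 siRNA with metastin-10 (0.0847). The log2 difference stayed between -0.56 and -0.44 over the 12 fits that each left out 1 array. In such bulk RNA, fewer cells with the transcript and less of it in each cell cannot be told apart.

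Under the GPR54 siRNA label, PTGS2 showed no fall with metastin-10. The difference there was 0.17 (95% interval -0.04 to 0.38, adjusted p = 1), with all 3 metastin-10 arrays above all 3 control peptide arrays. The interaction, that is this difference less the one under control siRNA, was 0.67 (95% interval 0.37 to 0.97). Its adjusted p was 0.179 in limma, so the difference between the 2 effects did not pass over all probe sets. With metastin-10, PTGS2 was 0.41 higher in the arrays labelled GPR54 siRNA than in control siRNA (95% interval 0.20 to 0.62, adjusted p = 0.11). With control peptide it was 0.27 lower in the arrays labelled GPR54 siRNA (log2 difference -0.27, 95% interval -0.48 to -0.05, adjusted p = 0.979). The groups of both siRNA comparisons did not overlap. These comparisons share arrays with the metastin-10 comparison under control siRNA and do not stand apart from it. Given array weights, the limma fit called both the interaction (0.69, adjusted p = 0.0269) and the siRNA difference with metastin-10 (0.40, adjusted p = 0.0181) at this probe set, a fit that called 0.458% and 3.69% of all probe sets in these comparisons.

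The other PTGS2 probe set, 1554997_a_at, was dim, at 3.35 on average. Only 19.8% of all probe sets were dimmer, against 56.6% for 204748_at. It read 3.44, 3.25 and 3.32 in GPR54 siRNA with metastin-10, 3.66, 3.34 and 3.28 in GPR54 siRNA with control peptide, 2.71, 3.13 and 3.64 in control siRNA with metastin-10, and 3.30, 3.51 and 3.66 in control siRNA with control peptide. Under control siRNA its metastin-10 difference was -0.33 (95% interval -0.74 to 0.08, adjusted p = 0.573), and the groups overlapped. Over the 12 arrays the 2 probe sets correlated at 0.48, and the mean of both gave a difference of -0.42 (adjusted p = 0.237). The call rests on the brighter probe set.

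**Figure D1:**
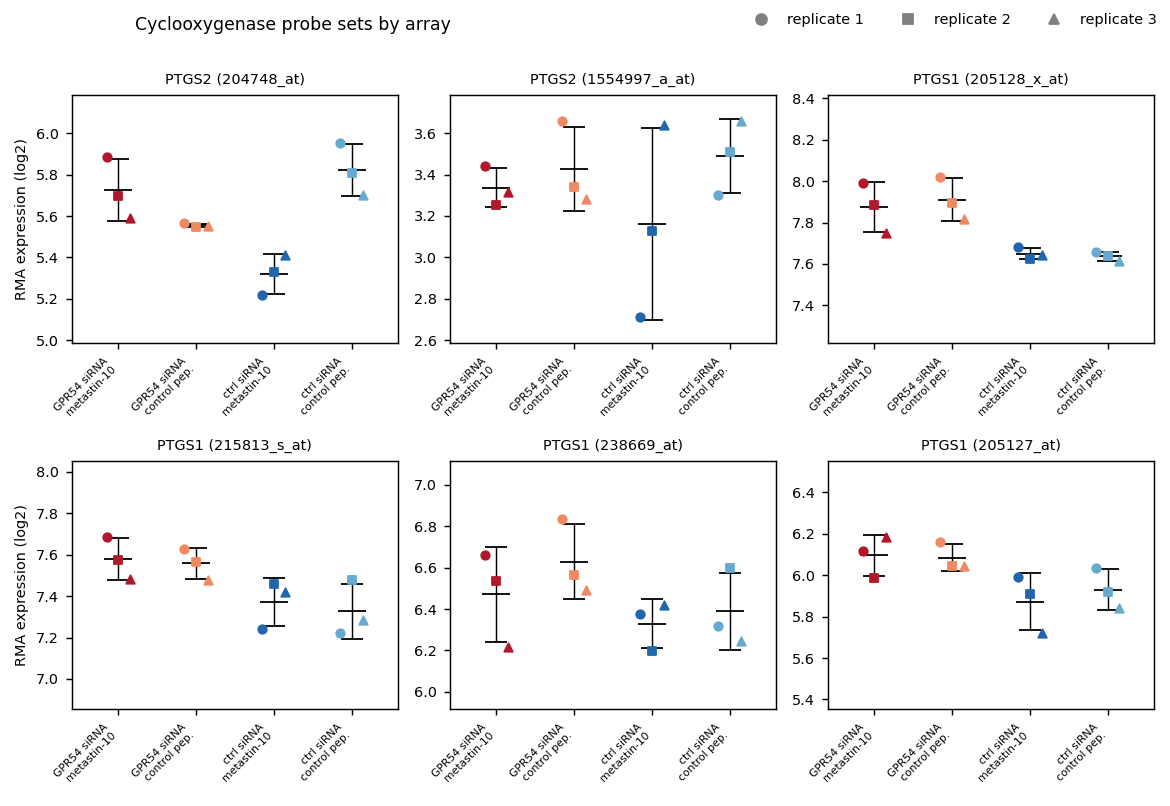
RMA expression (log2, vertical axes, different in each panel) of the 2 PTGS2 and 4 PTGS1 probe sets in the 4 groups. Points are arrays, shaped by replicate number, and bars are the mean ± SD of 3 arrays. At PTGS2 204748_at the control siRNA with metastin-10 arrays lie lowest, between 5.22 and 5.41, and at PTGS1 205128_x_at all 6 arrays labelled GPR54 siRNA lie above the 6 control siRNA arrays.

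By the rule that names the genes most like a called member, 5 genes followed PTGS2 most closely over the 12 arrays, out of 10794 genes with a mean of 6 or more. They were NR4A2, an orphan nuclear receptor and immediate early gene (r = 0.944), CEP57L1 (0.939), SLC16A4, a monocarboxylate transporter family member (0.936), TBC1D32 (0.925) and PARS2, the mitochondrial prolyl-tRNA synthetase (0.921). The 12 arrays share their 4 groups and their RMA run, so these values describe likeness in these samples only. NR4A2 averaged 6.34 ± 0.19 in GPR54 siRNA with metastin-10, 6.28 ± 0.06 in GPR54 siRNA with control peptide, 5.95 ± 0.12 in control siRNA with metastin-10 and 6.49 ± 0.10 in control siRNA with control peptide. Its metastin-10 difference under control siRNA was -0.54 (adjusted p = 0.0503) and did not pass.

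PTGS1, the cyclooxygenase that most tissues make constantly, was read by 4 probe sets. Correlations of the brightest with each of the others lay between 0.69 and 0.81 over the 12 arrays, and those among the others were not taken. The brightest, 205128_x_at, read 7.99, 7.88 and 7.75 in GPR54 siRNA with metastin-10 and 8.02, 7.89 and 7.82 in GPR54 siRNA with control peptide. It read 7.68, 7.63 and 7.64 in control siRNA with metastin-10 and 7.66, 7.64 and 7.61 in control siRNA with control peptide. All 6 arrays labelled GPR54 siRNA lay above all 6 control siRNA arrays, and within each siRNA the metastin-10 and control peptide arrays overlapped. The siRNA difference was 0.23 with metastin-10 (95% interval 0.04 to 0.41, adjusted p = 0.379) and 0.27 with control peptide (0.09 to 0.46, adjusted p = 0.729), so neither passed in limma. The metastin-10 difference was -0.04 under GPR54 siRNA (95% interval -0.22 to 0.15) and 0.01 under control siRNA (-0.17 to 0.20).

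The mean of the 2 siRNA comparisons was added after the PTGS1 values were seen. On it the PTGS1 differences were 0.25, 0.22, 0.19 and 0.19 for 205128_x_at, 215813_s_at, 238669_at and 205127_at, all above 0, with adjusted p of 0.16, 0.327, 0.612 and 0.413. None passed, and over all 29 probe sets 0 did (6 at an unadjusted p under 0.05), against 0.266% called and 8.77% at that unadjusted p among all probe sets. The first 2 of these probe sets had no overlap between the 6 arrays labelled GPR54 siRNA and the 6 control siRNA arrays. With HPGD 211548_s_at they made 3 of the 29 (10.3%), against 0.626% of all probe sets. The 2 are not separate evidence, since they read one gene. For 215813_s_at the arrays labelled GPR54 siRNA ran from 7.48 to 7.68 (median 7.57) and the control siRNA arrays from 7.22 to 7.476 (median 7.35), so the gap was narrow. Given array weights, 205128_x_at passed (0.25, adjusted p = 0.0286, with 1.22% of all probe sets called), and it did so too when only probe sets averaging 6 or more were tested (0.25, adjusted p = 0.0403). The share of all probe sets called with that filter is not given here. Over the alternatives 69 to 666 probe sets were called on this mean.

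The terminal prostaglandin E synthases did not pass in any comparison. PTGES encodes the inducible microsomal synthase that works downstream of PTGS2. Its probe set 210367_s_at read 5.23, 5.49 and 5.28 in GPR54 siRNA with metastin-10, 5.08, 5.55 and 5.46 in GPR54 siRNA with control peptide, 5.59, 5.68 and 5.53 in control siRNA with metastin-10, and 5.25, 5.21 and 5.30 in control siRNA with control peptide. Under control siRNA the 3 metastin-10 arrays lay above the 3 control peptide arrays, opposite to PTGS2, by 0.35 (95% interval 0.09 to 0.60, adjusted p = 0.308). The brighter PTGES probe set, 207388_s_at, gave 0.09 there (95% interval -0.14 to 0.31), its groups overlapped, and the 2 correlated at 0.40 over the arrays. With metastin-10, 210367_s_at was 0.27 lower in the arrays labelled GPR54 siRNA than in control siRNA (log2 difference -0.27, 95% interval -0.52 to -0.01, adjusted p = 0.466).

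PTGES2, a membrane-associated synthase, had 1 probe set. It averaged 8.49 ± 0.06 in GPR54 siRNA with metastin-10, 8.57 ± 0.03 in GPR54 siRNA with control peptide, 8.53 ± 0.05 in control siRNA with metastin-10 and 8.43 ± 0.07 in control siRNA with control peptide (SD, n = 3 each). Its metastin-10 difference was 0.11 under control siRNA (95% interval -0.06 to 0.27), with all 3 metastin-10 arrays above the others of that comparison. Under GPR54 siRNA it was -0.09 (-0.25 to 0.08), with all 3 metastin-10 arrays below the control peptide arrays there. Both gaps were narrow, from 8.49 to 8.493 under control siRNA and from 8.533 to 8.547 under GPR54 siRNA. Neither difference passed. PTGES3, which encodes p23, a co-chaperone of HSP90 that is also described as a cytosolic synthase, was among the brightest transcripts on the array. Only its own signal can be followed, since probe sets differ in brightness for the same amount of RNA, but 99.5% of all probe sets were dimmer. It stayed between 13.10 and 13.22 on every array, and its 4 pairwise differences lay between -0.06 and 0.03 with intervals within -0.21 and 0.18.

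**Figure D2:**
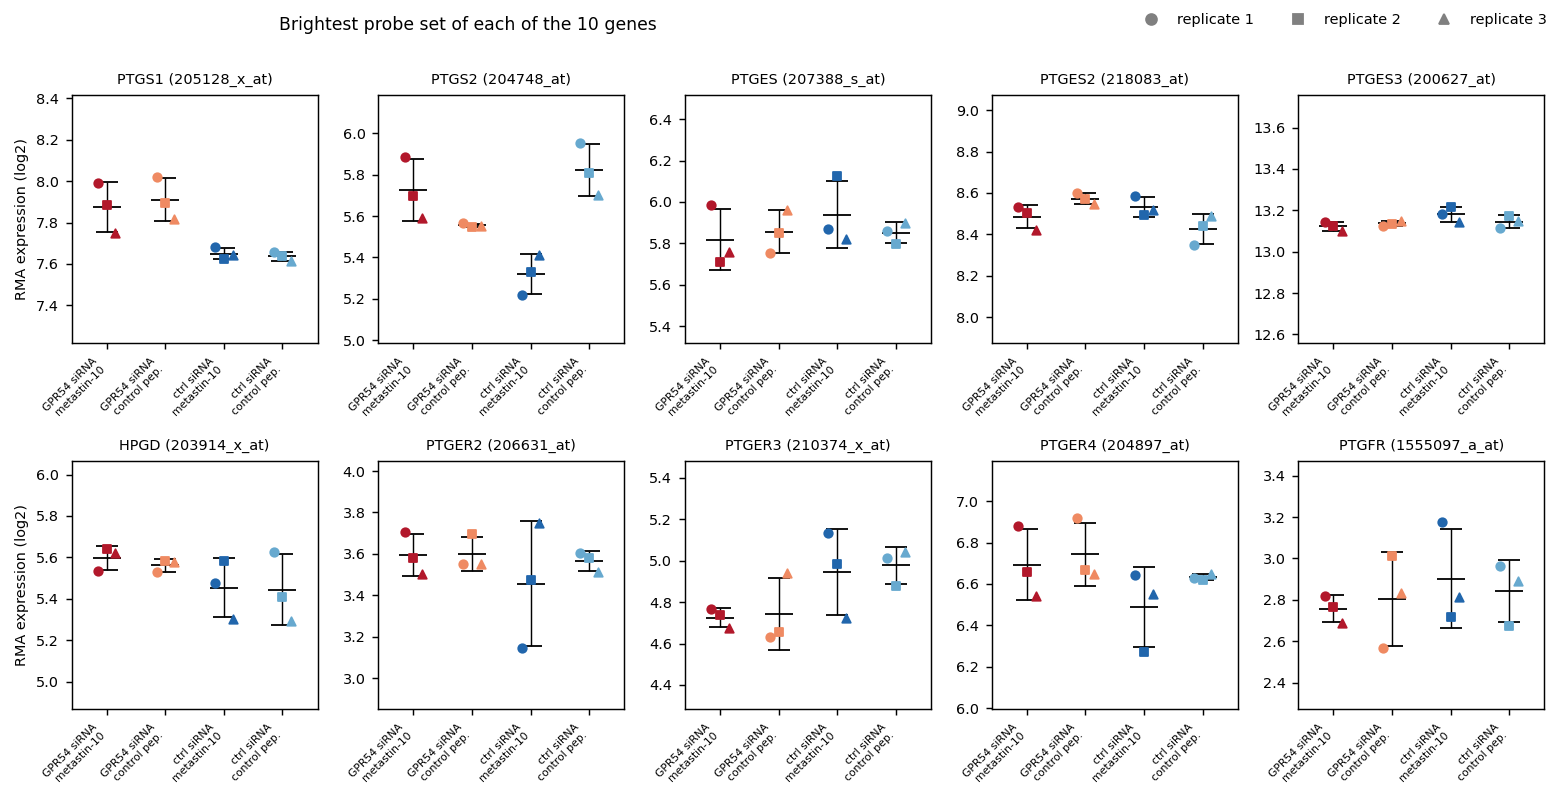
RMA expression (log2, vertical axes, different in each panel) of the brightest probe set of each of the 10 genes. Points are arrays, shaped by replicate number, and bars are the mean ± SD of 3 arrays. The PTGS2 panel shows the lowest values in control siRNA with metastin-10, the PTGS1 panel a step between the siRNAs, and the PTGES3 panel values between 13.10 and 13.22.

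Breakdown was read through HPGD, the dehydrogenase that inactivates prostaglandins, at 4 probe sets of moderate or low brightness. Its probe set 211548_s_at read 5.23, 5.02 and 5.02 in GPR54 siRNA with metastin-10, 5.14, 4.99 and 5.00 in GPR54 siRNA with control peptide, 4.66, 4.76 and 4.76 in control siRNA with metastin-10, and 4.95, 4.79 and 4.90 in control siRNA with control peptide. All 6 arrays labelled GPR54 siRNA lay above all 6 control siRNA arrays. The siRNA difference was 0.36 with metastin-10 (95% interval 0.17 to 0.56, adjusted p = 0.113) and 0.16 with control peptide (-0.03 to 0.35, adjusted p = 1), and neither passed. The difference with metastin-10 was called when limma weighted the arrays (0.31, adjusted p = 0.0407). In the same comparison 203913_s_at gave 0.38 (95% interval 0.06 to 0.70, adjusted p = 0.394), the brightest probe set 203914_x_at gave 0.14 (-0.07 to 0.36) and 211549_s_at gave -0.11 (-0.33 to 0.11). Correlations of the brightest probe set with each of the others ran from -0.39 to 0.50 over the 12 arrays, so the 4 did not give one picture of the gene. Correlations among the others were not taken.

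Of the receptors, none passed in any comparison. PTGER4 encodes a prostaglandin E receptor that raises cyclic AMP, and it was the brightest receptor probe set (204897_at, 6.64 on average). It read 6.88, 6.66 and 6.54 in GPR54 siRNA with metastin-10, 6.92, 6.67 and 6.65 in GPR54 siRNA with control peptide, 6.64, 6.27 and 6.55 in control siRNA with metastin-10, and 6.63, 6.62 and 6.65 in control siRNA with control peptide. Both pairs of metastin-10 and control peptide groups overlapped, and the siRNA difference with metastin-10 was 0.20 (95% interval -0.05 to 0.46, adjusted p = 0.606). The other PTGER4 probe set, 204896_s_at, gave -0.30 in that comparison (95% interval -0.64 to 0.04; called with array weights at -0.47, adjusted p = 0.0469). The 2 correlated at -0.58, so PTGER4 has no agreed direction here.

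PTGER3, a prostaglandin E receptor with many splice forms that lowers cyclic AMP, was read by 10 probe sets, all dim, with averages between 2.38 and 4.85. The largest difference among them was at 210832_x_at, -0.38 for GPR54 siRNA against control siRNA with metastin-10 (95% interval -0.64 to -0.12, adjusted p = 0.275). That probe set read 4.44, 4.60 and 4.71 in GPR54 siRNA with metastin-10 and 5.09, 5.03 and 4.77 in control siRNA with metastin-10, with no overlap between the groups. It was called when limma weighted the arrays (-0.41, adjusted p = 0.043). Correlations of the brightest of the 10 with each of the others ranged from -0.65 to 0.77. PTGER2, the other cyclic AMP-raising receptor for prostaglandin E, averaged 3.55 at its single probe set, and its differences lay between -0.11 and 0.14. PTGFR, the receptor for prostaglandin F, averaged 2.83 and 2.53 at its 2 probe sets, and only 9.5% and 3.6% of all probe sets were dimmer. Without detection calls it is unknown whether signals this low stand above background, and such values can hide a change.

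Over all 29 probe sets the differences were mostly small. Under control siRNA, 17 metastin-10 differences lay above 0 and 12 below, with a median of 0.01. In the arrays labelled GPR54 siRNA, 9 lay above and 20 below (median -0.03). For the siRNA labels with control peptide 20 lay above and 9 below (median 0.06), and with metastin-10 14 lay above and 15 below (median -0.04). Over all 19775 genes the 4 medians were 0.01, -0.01, 0.02 and 0.00. Half-widths of the 95% intervals of the 29 were 0.15 to 0.41, and in the metastin-10 comparison under control siRNA 23 of 29 intervals lay wholly within -0.5 and 0.5. PTGS2 204748_at was the lowest of the 29 there, and over the 9 other genes at their brightest probe sets the largest in size was -0.14, at PTGER4.

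**Figure D3:**
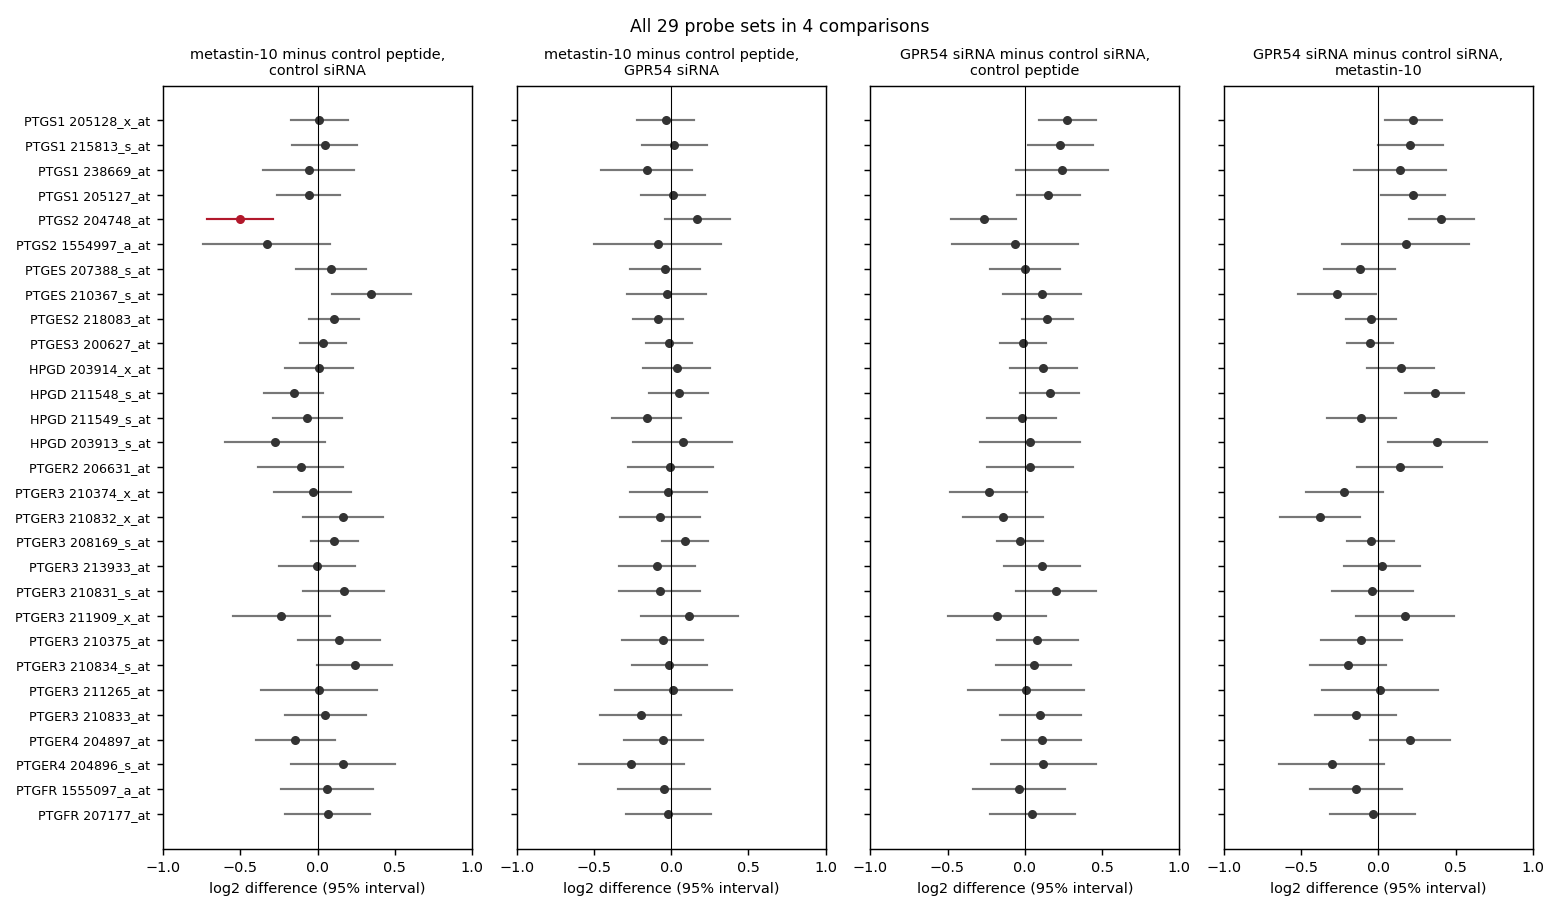
Log2 differences (horizontal axes) with 95% intervals for all 29 probe sets, grouped by gene, in the 4 pairwise comparisons. Red marks an adjusted p under 0.05, which PTGS2 204748_at alone reached, at -0.50 for metastin-10 under control siRNA.

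Outside that comparison 0 of the 29 passed in limma. For metastin-10 in the arrays labelled GPR54 siRNA 0% of all probe sets were called, and 0 of the 29 had an unadjusted p under 0.05 (2.21% of all). For the siRNA labels with control peptide the 0 stands beside 0.0531% of all, and 3 of the 29 had an unadjusted p under 0.05 (4.25% of all). With metastin-10 it stands beside 0.579% of all, and 7 of the 29 had such a p (10.1% of all). For the interaction it stands beside 0.0513% of all, and 2 had such a p (6.09% of all). Under control siRNA 2 of 29 had such a p for metastin-10, against 10.6% of all.

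Counts of probe sets whose 3 arrays in one group all lay beyond the 3 of the other tell how often the groups parted without a test. For metastin-10 under control siRNA these were 5 of 29 (17.2%), against 16.6% of all probe sets, so the share was near that of the array. In the arrays labelled GPR54 siRNA they were 3 of 29 (10.3%), against 5.57%. For the siRNA labels they were 6 of 29 with control peptide (20.7%, against 9.76%) and 10 of 29 with metastin-10 (34.5%, against 13.7%). The 10 were 5 higher and 5 lower, at PTGS1, PTGS2, PTGES, PTGES3, HPGD and PTGER3. Several of them read the same gene, so the 29 are not independent.

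Among other genes of the pathway, at 1 probe set per gene, calls were found in 1 of 8 lists. The lists without a call in any of the 5 comparisons were the other prostanoid synthases (7 of 8 genes measured), the other prostanoid receptors and their regulator PTGFRN (6), transport and inactivation (6), arachidonate release and recycling (9 of 11), lipoxygenases and other arachidonate oxidation (8), regulators of PTGS2 transcription and mRNA decay (14), and cyclic AMP response genes (8 of 10). AKR1B1, PLA2G4B, PLA2G10, AREG and PER1 were not analysed here. For metastin-10 under control siRNA their medians were -0.01, 0.09, -0.05, -0.01, -0.04, -0.03 and -0.05 in that order, against 0.01 over all genes. For the siRNA labels with metastin-10 they were 0.07, -0.16, 0.18, -0.001, 0.05, 0.01 and 0.10, against 0.00.

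The member with the smallest p in each of these lists is named with its values. PTGDS, a prostaglandin D synthase, had a metastin-10 difference under control siRNA of -0.22 (adjusted p = 0.396), and PTGDR2, a prostaglandin D receptor, had 0.21 (adjusted p = 0.543). For PTGDR2 the siRNA difference with metastin-10 was -0.23 (adjusted p = 0.526). PTGR1, a reductase that acts after HPGD, had -0.26 (adjusted p = 0.367), and the siRNA difference with metastin-10 was 0.32 (adjusted p = 0.259). MGLL, the monoacylglycerol lipase that can supply arachidonic acid, had a metastin-10 difference of 0.47 (95% interval 0.22 to 0.73, adjusted p = 0.125). ALOX5, the leukotriene-forming lipoxygenase, had -0.40 (adjusted p = 0.432), and its siRNA difference with metastin-10 was 0.44 (adjusted p = 0.4). ATF2, a factor that binds cyclic AMP response elements, had a metastin-10 difference of -0.29 (adjusted p = 0.306). None of these 6 genes passed, and NR4A2, described above, had the smallest p of the cyclic AMP response genes.

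The list with calls was that of 8 prostaglandin response genes, of which 1 rose and 1 fell with metastin-10 under control siRNA (median 0.13). These are 2 of 8 genes, against 0.428% of all probe sets called, in a list chosen with earlier results of these data known. VEGFA, the vascular growth factor, read 11.37, 11.50 and 11.19 in GPR54 siRNA with metastin-10, 11.29, 11.53 and 11.27 in GPR54 siRNA with control peptide, 10.50, 10.67 and 10.52 in control siRNA with metastin-10, and 11.35, 11.41 and 11.16 in control siRNA with control peptide. Its 3 arrays of control siRNA with metastin-10 lay below the other 9, as they did for PTGS2, NR4A2, KISS1R and KRT19. How many of all probe sets share this pattern was not counted. VEGFA fell by 0.74 (95% interval -0.98 to -0.51, adjusted p = 0.00943) with metastin-10 under control siRNA. ADAMTS1, a matrix protease, rose by 0.47 in that comparison (95% interval 0.28 to 0.67, adjusted p = 0.0434). Among metastin-10 arrays, those labelled GPR54 siRNA were higher than control siRNA for VEGFA (0.79, adjusted p = 0.00493) and lower for ADAMTS1 (log2 difference -0.50, adjusted p = 0.0251). In this siRNA comparison too 1 rose and 1 fell, against 0.579% of all probe sets called, and it shares the control siRNA with metastin-10 arrays with the other. The 6 other genes of the list, CXCL8, CXCL1, IL6, IL11, FGF2 and RCAN1, lay between -0.13 and 0.20 under control siRNA and did not pass. VEGFA and ADAMTS1 respond to many signals.

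**Figure D4:**
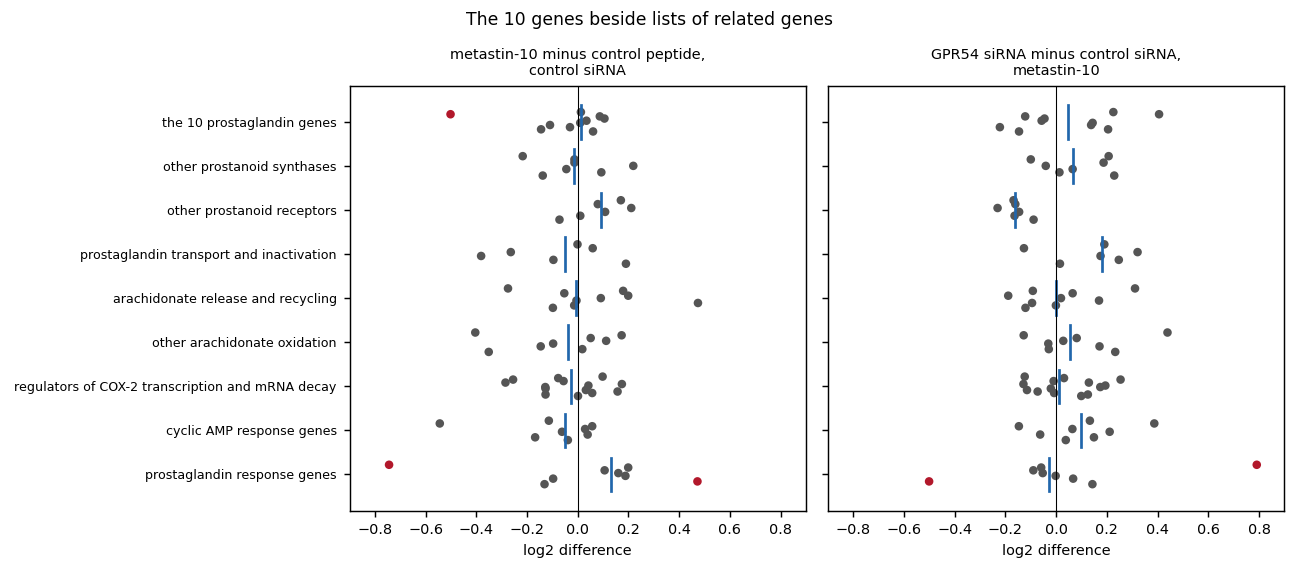
Log2 differences (horizontal axes) of the 10 prostaglandin genes and of 8 lists of related genes, 1 point per gene at its brightest probe set, for metastin-10 under control siRNA and for GPR54 siRNA against control siRNA with metastin-10. Vertical bars are list medians and red points have an adjusted p under 0.05: PTGS2, VEGFA and ADAMTS1 under control siRNA, and VEGFA and ADAMTS1 for the siRNA labels.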

How the data were processed

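Total RNA of 12 samples was labelled by the Affymetrix one-cycle method and hybridised to 12 arrays, per the labels. The values used are the authors' deposited log2 expression levels (1.88 to 14.65). They are RMA values, as the submitters' processing notes say. The software version is not given in the sources used here. RMA corrects background, gives all arrays one distribution and summarises each probe set, so a shift of most genes one way would not be seen and dim probe sets are compressed. No scanner file or detection call was used here. The number of arrays limits the precision.

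The members, lists and tests were chosen with earlier results of these data known. The 62 control probe sets were left out and 54613 were tested with no filter. Of these, 41091 had 1 gene, 1801 several and 11721 none listed in the platform annotation, and 41037 were matched by Entrez identifier to assembly GRCh38.p14 with 0 symbols changed. All 29 member probe sets had 1 gene. In the lists a gene was taken at its brightest probe set (mean over all arrays).

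The test was limma (3.58.1, in R 4.3.3), with 4 group means fitted per probe set, 8 residual degrees of freedom, and eBayes. The 5 contrasts were metastin-10 under each siRNA, the siRNA under each peptide, and the interaction. Tests were two-sided, with Benjamini-Hochberg adjustment over all 54613 probe sets and a threshold of 0.05. The script was tested on simulated data.

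The rule for named genes took the members, KISS1R, each list's called genes (or its 1 gene with the smallest p) and the 5 genes most correlated with a called member. Alternatives were a replicate block, array weights, a variance trend, median centring, a filter at a mean of 6, only the 2 groups compared, each array left out, other probe sets, and, chosen after seeing the data, replicates 1 and 2 only, the average siRNA contrast and the mean of a gene's probe sets. The labels number replicates 1 to 3 without saying that a number is shared. Deviations of same-numbered arrays correlated at over 0.1 for all 3 pairs in metastin-10 under control siRNA (0.174 to 0.437), metastin-10 under GPR54 siRNA (0.261 to 0.521) and the siRNA with control peptide (0.108 to 0.545), but not in the siRNA with metastin-10 (-0.148 to 0.262). The first 3 of these comparisons involve all 4 groups, so from these values it cannot be told whether the numbers paired the samples. Replicate 3 also stood apart in its beta-actin difference, and its part in these correlations was not tested.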

Additional observations from a re-analysis of the deposited data

How the results depend on the processing

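With the replicate number as a block, PTGS2 under control siRNA was at -0.50 (adjusted p = 0.0466) and the block changed no call among the 29 probe sets in any of the 5 comparisons. Over all probe sets the block gave 422, 0, 51, 504 and 45 calls, against 234, 0, 29, 316 and 28 without it, in the order metastin-10 under control siRNA, metastin-10 under GPR54 siRNA, siRNA with control peptide, siRNA with metastin-10, and interaction. The single call under control siRNA became 0 calls with the variance trend (adjusted p = 0.0615), array median centring (0.0582), replicates 1 and 2 only (0.0587) and only the 2 groups compared (0.149), and 0 with the filter at a mean of 6, which removed PTGS2 204748_at, so that it has no value there. Leaving out 1 array at a time gave 0 to 1 calls. Of 18 alternatives at that probe set 14 lost the call, while the difference stayed between -0.61 and -0.44 in all 18. At the other PTGS2 probe set it was -0.33 and for the mean of both -0.42. Array weights gave 4 calls for the siRNA with metastin-10 (PTGS2 0.40, HPGD 211548_s_at 0.31, PTGER3 210832_x_at -0.41 and PTGER4 204896_s_at -0.47) and 1 for the interaction (PTGS2, 0.69), beside 2016 (3.69%) and 250 (0.458%) calls over all probe sets with the same weights. The average siRNA contrast had 1 call, PTGS1 205128_x_at, both with array weights and with the filter, and 0 otherwise. The causes were not tested. Over all probe sets the alternatives gave 71 to 495, 0 to 0, 0 to 130, 57 to 2016 and 2 to 250 calls in the 5 comparisons, and 69 to 666 for the average. Of 1240 values of member genes under alternatives, 1220 kept their side of the threshold, 114 uncalled ones changed sign and 0 called ones did. The interaction uses all 4 groups and so has no alternative with only the groups compared. Signals as low as those of PTGFR, PTGER2 and most PTGER3 probe sets limit what could be seen.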
